A study of Mus musculus with 6 samples.

Results

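The 10 genes of the osteoclast and its RANKL system described here were examined in the intervertebral disc (IVD). They were taken by symbol from the count table of each library, and all 10 were found among the 43472 gene symbols listed there. Ctsk, Acp5 and Atp6v0d2 make the tools of bone resorption, Dcstamp and Ocstamp serve cell fusion, Oscar and Calcr are receptors of the osteoclast lineage, and Tnfsf11, Tnfrsf11a and Tnfrsf11b encode RANKL, RANK and osteoprotegerin (OPG). The 6 libraries were 3 pools of Col2Cre;Adgrg6 f/f mutant discs and 3 pools of Cre (-) control discs, and the comparison asks how these genes are expressed when ADGRG6 is lost from the young disc. Each pool held the T8-L5 discs of 2 to 3 mice at postnatal day 20, from mice whose strain is labelled C57B6/J. The controls are labelled wild type for genotype and Col2Cre controls by title, and the sources used here do not say whether they carried floxed Adgrg6 alleles. Col2Cre is a Cre driven by the promoter of Col2a1, the main collagen gene of cartilage, and recombines across the IVD and also in periosteum and trabecular bone, so it is not confined to disc cartilage. Osteoclasts, which arise from blood-forming cells, are not a stated target of this Cre.

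Osteoclasts are multinucleated cells that dissolve mineral with acid and digest bone collagen with cathepsin K. Their precursors need M-CSF to survive and RANKL, which binds RANK on their surface, to differentiate through NF-kB, c-Fos and NFATc1, and OPG is a soluble decoy that captures RANKL. In the growing spine, RANKL and OPG come from hypertrophic chondrocytes, osteoblasts and osteocytes, and osteoclasts work where the calcified cartilage of the endplate and growth plate meets bone.

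No member of this gene set passed the test for a difference between mutant and control IVDs. The protease gene Ctsk was at 47.1 ± 5.69 CPM (counts put on one library scale by TMM) in controls and 54.1 ± 12.7 CPM in mutants, and the decoy gene Tnfrsf11b at 26.0 ± 5.47 and 25.3 ± 2.49 CPM (SD, n = 3 each). The fusion genes were close to the detection floor, and the phosphatase gene Acp5 was lower than every control in 2 mutant pools and higher than every control in 1. Of the 10 members, 6 passed the filter on low counts and 0 of these 6 had an unadjusted p under 0.05 in edgeR's quasi-likelihood test, where 7.21% of the 16152 genes tested did. At an adjusted p under 0.05 the count was also 0 of 6, beside 0.00619% of all genes. The median log2 fold change of mutant over control was -0.33 over the 6 members tested and -0.01 over all genes tested. The filter removed Dcstamp, Ocstamp, Oscar and Calcr, which are described by their counts.

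The libraries held between 9061491 and 12017008 counts on genes. A count of 3, taken as a fixed detection floor, stood for 0.233 to 0.341 CPM, and limits drawn from counts cover counting error only. The targeted gene, listed by its older symbol Gpr126, was at 108 ± 14.9 CPM in control and 122 ± 16.1 CPM in mutant libraries (SD, n = 3 each), with a log2 fold change of 0.17 and an adjusted p of 0.849 in edgeR. These counts cover the whole gene and do not check the deleted part. Control replicate 1 stood apart by its skeletal muscle markers, which summed to 4489 CPM against 203 to 303 CPM in the other 5 libraries. Since each library is a pool of a bulk tissue, fewer cells of a type and less RNA per cell cannot be told apart. The p-values weigh the group difference against a spread between pools, estimated with information from all genes, and not between single mice.

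**Figure D1:**
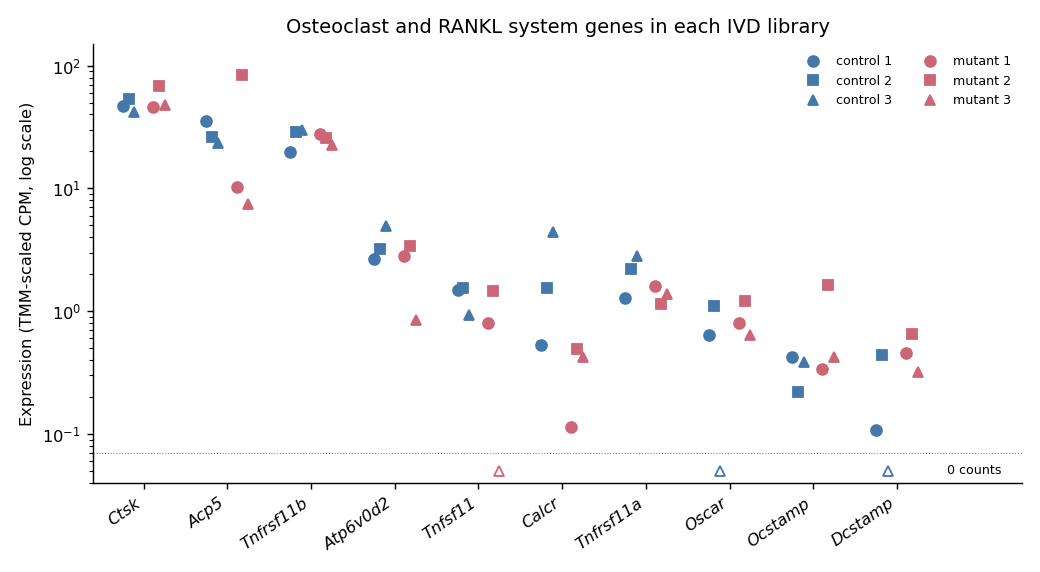
Expression of the 10 genes in each library, in TMM-scaled CPM on a log axis, with genes ordered by their control level per kilobase of exon. Blue points are control pools and red points mutant pools, with a shape for each replicate number, and open triangles under the dotted line are libraries with 0 counts. Acp5 runs from 7.53 to 84.0 CPM within the mutant group, and Calcr is the one gene whose groups do not overlap.

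The genes differed widely in level. Per kilobase of exon, control libraries held 31.1 ± 3.77 CPM of Ctsk, 13.9 ± 3.07 of Acp5 and 9.24 ± 1.94 of Tnfrsf11b (SD, n = 3), followed by 1.33 ± 0.443 of Atp6v0d2 and 0.593 ± 0.153 of Tnfsf11. Calcr, Tnfrsf11a and Oscar followed at 0.554, 0.350 and 0.315 CPM per kilobase, and Ocstamp and Dcstamp came last at 0.0945 and 0.0687. Ctsk stood above Acp5, Tnfrsf11b above Atp6v0d2 and Atp6v0d2 above Tnfsf11 by more than the SDs of either neighbour, whereas Acp5 and Tnfrsf11b, and each pair of neighbours among the 6 genes from Tnfsf11 down, did not differ beyond their spread. Ctsk and Acp5, the defining resorption genes, had between 71 and 1032 counts, while the fusion genes and Calcr, which mark mature osteoclasts, had between 0 and 57 counts. Ctsk is also made by periosteal and other connective tissue cells.

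Ctsk and Acp5 had the most counts of the 10 genes and are the members whose libraries are compared in most detail, so the reference sequence just upstream of their starts is shown. Of the 10 genes, 6 matched an entry of the RefSeq promoter table (GRCm38.p6), Ctsk, Acp5, Oscar, Calcr, Tnfsf11 and Tnfrsf11a. A set of 4 motifs was searched on both strands in the 250 bases before each start, namely AP-1 (TGANTCA), the E-box bound by MITF and TFE factors (TCANNTGA), PU.1 (GAGGAAGT) and the NFAT core (TGGAAA), and they occurred in 6.75%, 7.09%, 2.44% and 18.6% of 32851 promoters of that length. The Ctsk stretch lies at chr3:95498960-95499209 on the plus strand and the Acp5 stretch, before the third of its 3 listed starts, at chr9:22130599-22130848 on the minus strand. Both are written 5′ to 3′ with motif matches in capitals.
Ctsk: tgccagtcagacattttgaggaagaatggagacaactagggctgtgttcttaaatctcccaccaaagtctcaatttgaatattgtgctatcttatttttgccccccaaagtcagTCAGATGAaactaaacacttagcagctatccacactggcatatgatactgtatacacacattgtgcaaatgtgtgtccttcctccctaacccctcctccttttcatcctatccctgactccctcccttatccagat
Acp5: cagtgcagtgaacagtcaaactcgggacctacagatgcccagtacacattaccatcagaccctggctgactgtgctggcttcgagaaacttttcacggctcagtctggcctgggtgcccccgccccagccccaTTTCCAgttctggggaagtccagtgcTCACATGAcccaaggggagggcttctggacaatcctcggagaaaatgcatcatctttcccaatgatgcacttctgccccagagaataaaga
In Ctsk the capitals mark an E-box match that begins 136 bases before the start. In Acp5 they mark, in order, an NFAT match on the opposite strand 117 bases before the start and an E-box match 91 bases before it. The other 2 Acp5 starts, both Calcr starts, Tnfsf11 and Tnfrsf11a held no match to these letters, and Oscar held 2 NFAT matches. A match describes the sequence and is not evidence of binding.

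Ctsk, which encodes cathepsin K, the protease that cleaves type I collagen in the resorption pit, spans chr3:95499256-95509362 (GENCODE M21 on GRCm38). It was at 46.7, 53.0 and 41.6 CPM in control replicates 1, 2 and 3 and at 46.0, 68.7 and 47.5 CPM in mutant replicates 1, 2 and 3. Mutant replicate 2 was the highest library and the groups overlapped. The log2 fold change was 0.20 with a standard error (SE) of 0.20, a 95% interval from -0.24 to 0.64 and an adjusted p of 0.840 in edgeR. Without mutant replicate 2 it was 0.00.

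Acp5 encodes tartrate-resistant acid phosphatase (TRAP), the enzyme behind the usual stain for osteoclasts, and spans chr9:22126727-22135711. It was at 35.2, 26.0 and 23.4 CPM in the control libraries and at 10.3, 84.0 and 7.53 CPM in mutant replicates 1, 2 and 3. Mutant replicates 1 and 3 thus lay below every control and mutant replicate 2 above every control, an 11.2-fold span between the highest and lowest library that rests on 71 to 1032 counts. With all 6 libraries the log2 fold change was 0.28 (SE 0.72, 95% interval from -1.31 to 1.87) and the adjusted p was 0.945 in edgeR. Without mutant replicate 2 it was -1.65 (SE 0.27), with an unadjusted p of 0.000162 and an adjusted p of 0.418 in edgeR. Its direction also reversed with every library kept, to -0.60 with a replicate block and to -0.86 in limma-voom, neither past the threshold. Of the Acp5 exon bases, 6.75% overlap the opposite-strand gene 6530413G14Rik, and the strand setting of the counting is not given in the sources used here.

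**Figure D2:**
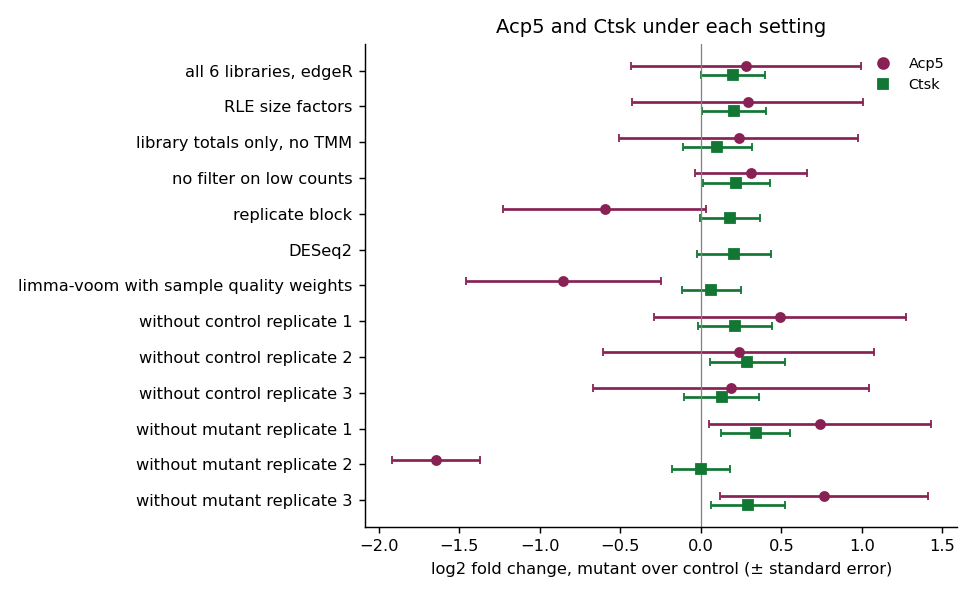
The log2 fold change of Acp5 (circles) and Ctsk (squares), mutant over control, with all 6 libraries and under each other setting, where bars are standard errors. Acp5 lies between 0.18 and 0.76 in the settings that keep mutant replicate 2 at full weight and treat the pools as unpaired, and at -1.65 without that pool, whereas Ctsk stays between 0.00 and 0.34. Acp5 also lies below 0 with the replicate block, at -0.60, and in limma-voom with quality weights, at -0.86. DESeq2 gave no p for Acp5 and is not drawn.

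The ratio of these enzymes within a library does not depend on scaling between libraries. The log2 ratio of Acp5 to Ctsk counts was -0.40, -1.03 and -0.83 in the controls and -2.15, 0.29 and -2.65 in the mutants. The mean was -0.75 ± 0.32 in controls and -1.50 ± 1.57 in mutants (SD, n = 3 each), and the groups overlapped because mutant replicate 2 lay above all controls. The spread among mutant pools was therefore larger than the difference of 0.75 between the group means.

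Atp6v0d2 encodes a subunit of the proton pump that acidifies the resorption pit and also takes part in precursor fusion. It was at 2.67, 3.21 and 4.97 CPM in controls and at 2.84, 3.42 and 0.85 CPM in mutants. Mutant replicate 3 was the lowest library, at 8 counts, and the other mutant pools lay within the control range. Its log2 fold change was -0.61 (SE 0.58) with an adjusted p of 0.830 in edgeR. Leaving out mutant replicate 3 gave -0.21, leaving out control replicate 3 gave -0.29, leaving out mutant replicate 2 gave -0.96, and limma-voom gave -1.07, none of them past the threshold.

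The fusion genes gave few reads. Dcstamp, which encodes DC-STAMP, the membrane protein required for osteoclast precursors to fuse, had 1, 4 and 0 counts in controls and 4, 8 and 3 in mutants. Ocstamp, its partner OC-STAMP, had 4, 2 and 5 counts in controls and 3, 20 and 4 in mutants. The 20 counts of Ocstamp in mutant replicate 2, at 1.63 CPM, were its highest value, and in both genes the groups overlapped. With no filter on low counts the log2 fold change was 1.39 (SE 1.68) for Dcstamp and 1.21 (SE 1.28) for Ocstamp, with an unadjusted p of 0.412 and 0.346 in edgeR.

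Oscar encodes a collagen-binding costimulatory receptor of osteoclasts. It had 6, 10 and 0 counts in controls and 7, 15 and 6 in mutants, and the groups overlapped. Calcr encodes the receptor for calcitonin, the hormone that halts resorption, and spans chr6:3685680-3764714. Calcr had 5, 14 and 57 counts in controls, or 0.53, 1.55 and 4.42 CPM, and 1, 6 and 4 counts in mutants, or 0.11, 0.49 and 0.42 CPM. Every mutant pool lay below every control pool, but control replicate 1 and mutant replicate 2 were 0.53 and 0.49 CPM, so the separation was by less than 1 count at these depths. Of the 6 members that passed the filter, the groups did not overlap in 0, beside 11.4% of all genes tested, and Calcr, which did not pass it, has no such share to be read against.

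Calcr did not pass the filter with all 6 libraries. With no filter its log2 fold change was -2.58 (SE 0.96), with an unadjusted p of 0.00938 and an adjusted p of 0.305 over 26418 genes in edgeR. In fits that left out a library, it passed the filter only where control replicates 2 and 3 were both kept, that is, only through the group where it was high, so the p-values of those fits are not given. Control replicate 3 alone held 57 of its 87 counts.

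**Figure D3:**
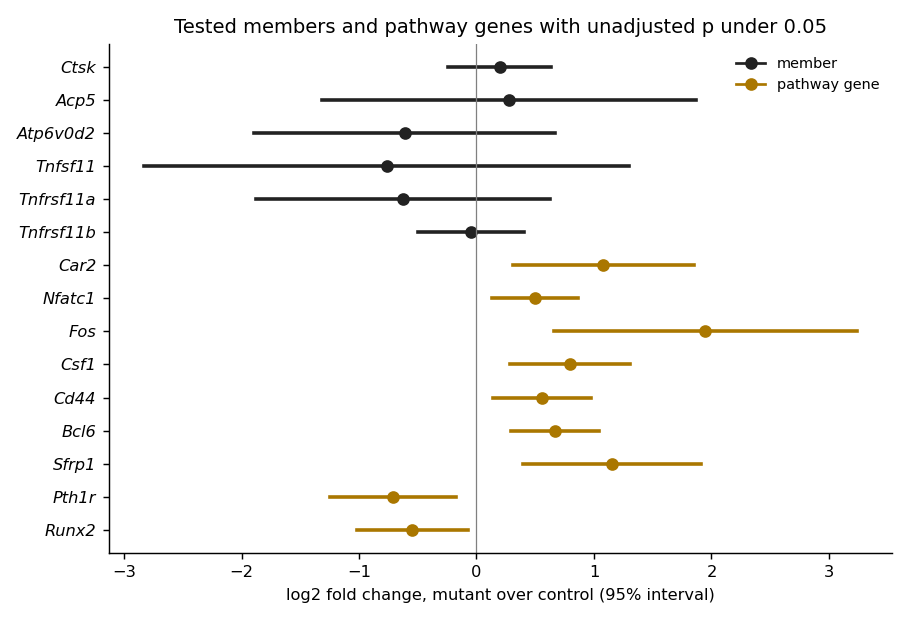
Log2 fold change of mutant over control with its 95% interval for the 6 members tested (black) and for the 9 genes of the pathway lists with an unadjusted p under 0.05 (gold). Every black interval crosses 0, and the interval of Tnfsf11, from -2.83 to 1.30, is the widest among members.

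RANKL, the ligand of the system, was scarce. Tnfsf11 had 14, 14 and 12 counts in controls and 7, 18 and 0 in mutants, or 1.50, 1.55 and 0.93 CPM against 0.80, 1.47 and 0 CPM. Mutant replicate 3 held no read, for which the 95% Poisson interval reaches 0.391 CPM, and mutant replicate 2 was within the control range. Its log2 fold change was -0.77 (SE 0.93) with an adjusted p of 0.864 in edgeR. It was -0.20 without mutant replicate 3, -1.71 without mutant replicate 2, -1.19 with a replicate block and -2.44 in limma-voom, none of them past the threshold. With all libraries, a difference of up to 2.83 in the lower direction lies within the 95% interval.

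Tnfrsf11a encodes RANK, the receptor on precursors. It was at 1.28, 2.21 and 2.79 CPM in controls and at 1.59, 1.14 and 1.38 CPM in mutants. Controls 2 and 3 were above all mutants, and control replicate 1 was below mutant replicates 1 and 3. Its log2 fold change was -0.63 (SE 0.56) with an adjusted p of 0.823 in edgeR. Leaving out control replicate 3 gave -0.35 and leaving out control replicate 1 gave -0.86, neither past the threshold.

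Tnfrsf11b encodes OPG, the decoy receptor that cartilage and bone cells secrete. It was at 19.8, 28.5 and 29.8 CPM in controls and at 27.5, 25.7 and 22.6 CPM in mutants. The mutant pools all lay within the control range. Its log2 fold change was -0.05 (SE 0.20, 95% interval from -0.50 to 0.40) with an adjusted p of 0.969 in edgeR, and it was the least variable member, with a coefficient of variation of 14.9% over the 6 libraries.

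The balance of RANKL and OPG was taken as the log2 ratio of their counts within each library, after adding 0.5 to each. It was -3.68, -4.16 and -4.94 in controls and -5.01, -4.10 and -8.74 in mutants, so that OPG counts exceeded RANKL counts in all 6 libraries. The group means were -4.26 ± 0.64 and -5.95 ± 2.46 (SD, n = 3 each). The difference of -1.69 was smaller than the spread among mutants, and without mutant replicate 3, the pool with 0 RANKL counts, it was -0.30.

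**Figure D4:**
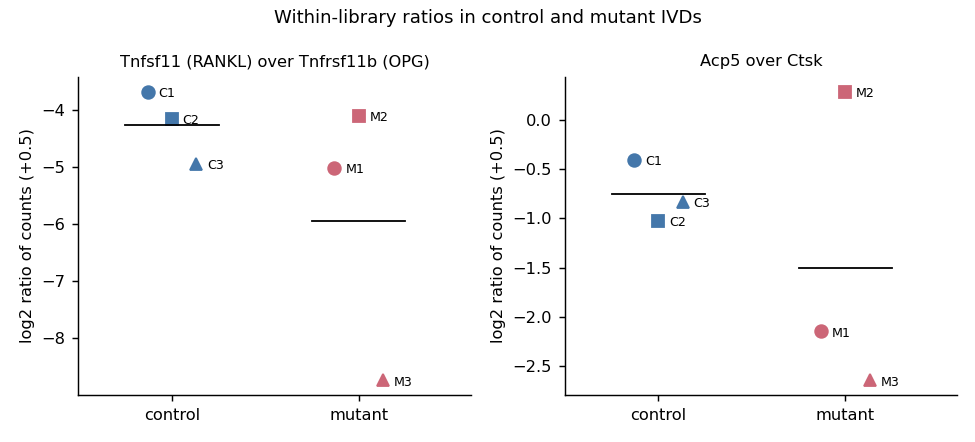
Log2 ratios of counts within each library, RANKL over OPG on the left and Acp5 over Ctsk on the right, with 0.5 added to each count. Points are pools, labelled C for control and M for mutant, and lines are group means. On the left mutant replicate 3 lies at -8.74 and the other 5 libraries between -5.01 and -3.68, and on the right mutant replicates 1 and 3 lie below all controls and mutant replicate 2 above them.

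The libraries did not order the members alike. Mutant replicate 2 was highest for 5 members, Ctsk, Acp5, Dcstamp, Ocstamp and Oscar, and control replicate 3 was highest for 4, Calcr, Atp6v0d2, Tnfrsf11a and Tnfrsf11b. Mutant replicate 3 was lowest for 3 members, Acp5, Atp6v0d2 and Tnfsf11, and control replicate 3 also for 3, Ctsk, Dcstamp and Oscar. Among the mutant pools, replicate 2 was the highest for all 3 resorption genes, Ctsk, Acp5 and Atp6v0d2.

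Markers of other cells also differed between these pools. Osteoblast markers (12 genes, all detected) summed to 9261 to 23907 CPM in controls and 21172 to 37554 CPM in mutants, with 3 of 12 higher and 2 of 12 lower at an unadjusted p under 0.05 in edgeR, beside 2.89% and 4.32% of all genes, the shares to read the next lists against as well. The called genes were Bglap, Bglap2 and Col1a1, which were higher, and Runx2 and Phex, which were lower, at 106 ± 22.7 against 72.5 ± 14.4 CPM for Runx2 (SD, n = 3 each). Red cell markers summed to 343, 40.0 and 101 CPM in controls and 277, 451 and 213 CPM in mutants, and 1 of their 8 genes tested was higher at that threshold. Mutant replicate 2, the library with the most Acp5 and Ctsk, had the highest sum of both lists. The osteoblast sum was mostly that of Col1a1 and Col1a2, which fibrous tissue also makes and which were at 19407 and 16148 CPM in that pool. The other members of the list were mixed there. Bglap, Ibsp and Ifitm5, at 25.4, 608 and 3.50 CPM, were higher in that pool than in any other library. Alpl and Sp7, at 409.6 and 55.3 CPM, were lower there than in any other library. Macrophage markers summed to 75.9 to 109 CPM in controls and were 190, 87.8 and 108 CPM in mutants, with 1 of 11 higher, and neutrophil markers were at 16.6 to 60.9 CPM and at 161, 57.4 and 33.9 CPM, with 2 of 9 higher. Macrophage and neutrophil markers peaked in mutant replicate 1, and red cell markers in mutant replicate 2, the library with the most Acp5. The part of bone and marrow tissue in the values of the members was not tested.

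**Figure D5:**
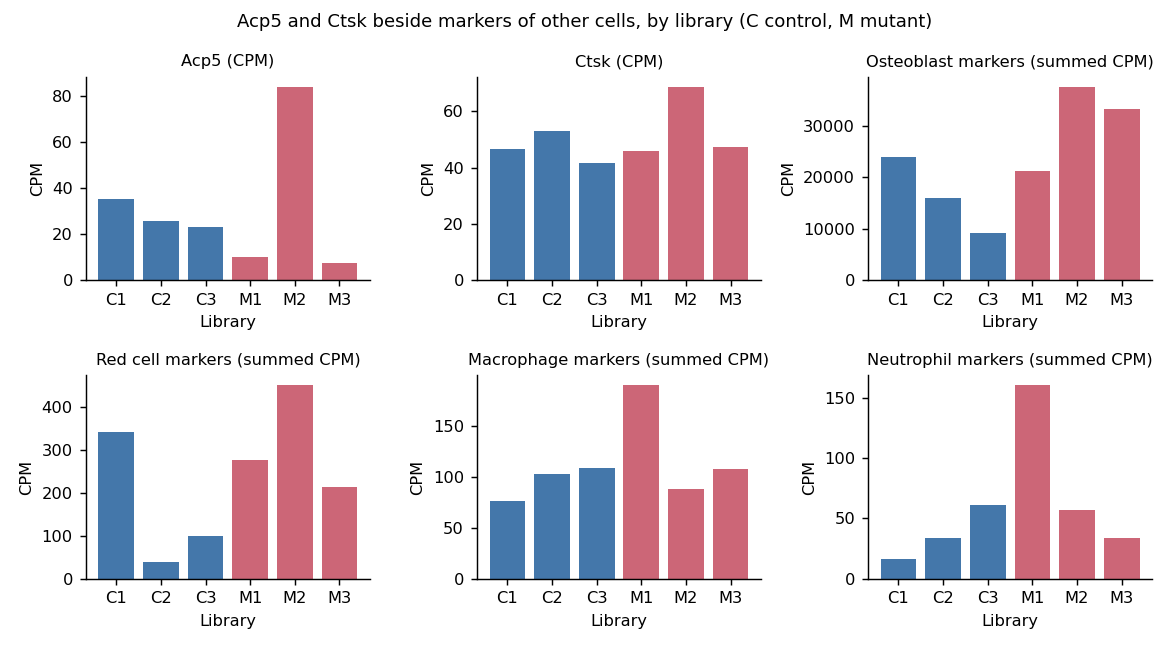
Acp5 and Ctsk beside the summed expression of osteoblast, red cell, macrophage and neutrophil markers in each library, as bars in CPM from 0, with C for control and M for mutant pools. Acp5 peaks in mutant replicate 2 at 84.0 CPM, where osteoblast markers at 37554 CPM and red cell markers at 451 CPM also peak. The osteoblast sum is mostly that of Col1a1 and Col1a2. Of the same list, Bglap, Ibsp and Ifitm5 are also highest in that pool, while Alpl and Sp7 are lowest there. Macrophage and neutrophil markers peak in mutant replicate 1.

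Around the members, 6 lists of genes from the same pathway were read in the same fit, with 88 genes in all. Of 76 tested, 9 had an unadjusted p under 0.05, which is 11.8% beside 7.21% of all genes, and 0 had an adjusted p under 0.05. Without control replicate 1, the library with the muscle markers, the order turned, with 9 of 77 called, or 11.7%, beside 14.1% of all genes. Of the 9, 7 were higher in mutants (9.21%, beside 2.89% of all genes) and 2 were lower (2.63%, beside 4.32%). The share of higher genes was 9.09% beside 5.25% of all genes without control replicate 1, 10.4% beside 4.73% without mutant replicate 2, 9.09% beside 1.76% without control replicate 3, and 7.89% beside 1.44% with library totals. The groups did not overlap for 7 of 76 genes that were higher in mutants, beside 5.53% of all genes, and for 4 that were lower, beside 5.89%. The median log2 fold change of the 76 was 0.04. The lists were chosen with earlier results of these data known, so these shares are descriptions and do not test an excess. In the lists below, calls are at the unadjusted threshold. The 9 called pathway genes had adjusted p-values of 0.625 to 0.676 in edgeR.

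In the resorption machinery, 1 of 18 genes tested was higher and 0 were lower. Car2, the carbonic anhydrase that supplies protons to the pump, was at 11.6, 5.09 and 6.21 CPM in controls and 18.5, 18.7 and 11.2 CPM in mutants, so that control replicate 1 lay above mutant replicate 3. It rose by 1.08 on the log2 scale (SE 0.35, unadjusted p = 0.0105 in edgeR). Car2 is also abundant in red cells. The most abundant genes of the list were Mmp14, a membrane collagenase, Cd9, a tetraspanin, and Rab7, a GTPase of late endosomes, with log2 fold changes of 0.03, -0.04 and 0.28, none past the threshold. The pump and channel genes Tcirg1 and Clcn7, at 74.3 and 34.5 CPM in controls, had log2 fold changes of -0.03 and 0.16.

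Among genes of RANK signalling, 2 of 22 tested were higher and 0 were lower. Nfatc1, the master transcription factor of osteoclasts, was at 71.5, 62.8 and 56.0 CPM in controls and 94.5, 86.0 and 88.7 CPM in mutants without overlap, and it rose by 0.50 on the log2 scale (SE 0.16, unadjusted p = 0.0123 in edgeR). Fos, whose product pairs with Jun in AP-1 and acts upstream of Nfatc1, was at 47.9, 14.7 and 28.3 CPM in controls and 236, 68.8 and 47.7 CPM in mutants. It rose by 1.95 (SE 0.58, unadjusted p = 0.00710 in edgeR), and by 0.97 without mutant replicate 1. Both genes are expressed in many cell types, chondrocytes among them. The receptor adaptor Traf6 had a log2 fold change of -0.10, and the most abundant genes, Sqstm1, Nfkb1 and Mapk14, had 0.14, 0.15 and -0.02, none past the threshold.

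Of the costimulation list, 7 of 12 genes passed the filter and 0 of 7 were called. Plcg2, Syk and Tyrobp, a phospholipase, a kinase and an adaptor gene, had the highest levels in the list, with log2 fold changes of -0.24, 0.44 and -0.62. Leaving out each library in turn, Plcg2 ranged from -0.40 to -0.11 and Syk from 0.13 to 0.74, none of them past the threshold. Tyrobp, which encodes DAP12, was at 6.32 CPM in controls and 4.15 CPM in mutants, and it passed the unadjusted threshold at -1.07 in limma-voom and at -1.15 without mutant replicate 1. Pira2 was listed at 0 in every library, and whether reads could be assigned to that symbol was not tested.

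Of the precursor and M-CSF list, 2 of 9 tested were higher. Csf1, encoding M-CSF, was at 13.7, 11.8 and 8.31 CPM in controls and 19.0, 18.6 and 21.1 CPM in mutants without overlap, and it rose by 0.80 on the log2 scale (SE 0.23, unadjusted p = 0.00605 in edgeR). Cd44, a hyaluronan receptor also present on disc cells, was at 15.4 to 17.4 CPM in controls and 22.2 to 28.9 CPM in mutants and rose by 0.56 (SE 0.19, unadjusted p = 0.0142 in edgeR), but the unadjusted p in edgeR was 0.0680 when TMM scaling was left out, and 0.0540 and 0.0557 when control replicate 2 or mutant replicate 2 was dropped, with log2 fold changes of 0.44, 0.50 and 0.44. The receptor for M-CSF, Csf1r, had a log2 fold change of 0.19 and did not pass the threshold, nor did Tfeb, Mitf and Cx3cr1, the most abundant genes, at 0.30, -0.09 and -0.01. Tfeb passed at 0.60 without mutant replicate 2.

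In a list drawn up as restraints on osteoclasts, 2 of 10 tested were higher. The list also holds Sost, whose product sclerostin restrains bone formation, Sema4d, an osteoclast product that restrains osteoblasts, and Eno1, a glycolytic enzyme gene, so its name does not describe every member. Bcl6, a repressor of osteoclast genes, was at 71.7, 79.8 and 64.4 CPM in controls and 123, 117 and 104 CPM in mutants without overlap, and it rose by 0.67 on the log2 scale (SE 0.17, unadjusted p = 0.00256 in edgeR). Sfrp1, a secreted Wnt antagonist that can also bind RANKL, was at 3.52 to 4.76 CPM in controls and 12.3, 6.43 and 10.2 CPM in mutants and rose by 1.16 (SE 0.34, unadjusted p = 0.00674 in edgeR). Eno1 and Nfkbia, which with Bcl6 were the most abundant genes of the list, had log2 fold changes of 0.29 and 0.18 and did not pass. Irf8 was listed at 0 in every library, and whether reads could be assigned to that symbol was not tested.

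Of the genes that induce RANKL in its source cells, 10 of 15 passed the filter, and 0 were higher and 2 were lower. Pth1r, the receptor for parathyroid hormone and PTHrP, was at 1090, 795 and 617 CPM in controls and 511, 474 and 548 CPM in mutants without overlap, and it fell by 0.71 on the log2 scale (SE 0.24, unadjusted p = 0.0147 in edgeR). Runx2, a transcription factor of osteoblasts and hypertrophic chondrocytes, was at 132, 92.8 and 92.3 CPM in controls and 71.5, 87.3 and 58.6 CPM in mutants and fell by 0.55 (SE 0.21, unadjusted p = 0.0282 in edgeR). The call of Pth1r in edgeR was lost when control replicate 1 or mutant replicate 2 was dropped, at log2 fold changes of -0.45 and -0.64 and an unadjusted p of 0.0704 and 0.0516. That of Runx2 in edgeR was lost when control replicate 1 was dropped, at -0.34 and an unadjusted p of 0.136, and when mutant replicates 1 or 3 were, at -0.50 and -0.41 and an unadjusted p of 0.0853 and 0.125. Sp7, encoding osterix, had a log2 fold change of -0.41 and did not pass, although it did at -0.53 with library totals and at -0.71 without mutant replicate 1. Of the cytokine genes of the list, Il6, Lif, Osm, Il1b and Tnf were each under 1 CPM in every library and were not tested, and Il11, at 0.93 to 2.77 CPM, had a log2 fold change of 0.49 and did not pass.

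Pth1r also belongs to the hypertrophic chondrocyte markers, 4 of which (Ihh, Pth1r, Panx3 and Mef2c) were lower among 8 tested at an unadjusted p under 0.05 in edgeR, beside 4.32% of all genes. Of the same list, Ibsp and Spp1 had log2 fold changes of 0.44 and 0.28 and did not pass, and every mutant pool lay above every control for Spp1. Among cartilage markers 4 of 10 tested (Col9a2, Col9a3, Matn3 and Snorc) were also lower and 0 higher. Among annulus and tendon markers 2 of 6 (Tnmd and Thbs4) were higher, beside 2.89% of all genes, and 0 lower. Scx, Mkx, Fmod and Dcn did not pass. The summed hypertrophic markers were at 2134 to 3282 CPM in controls and 1965 to 2335 CPM in mutants, highest in control replicate 1, and their part in the values of Tnfsf11 and Pth1r was not tested. Tnfsf11 itself was lowest in mutant replicate 3, where that sum was also lowest.

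The genes whose log2 CPM followed Ctsk most closely over the 6 libraries were Uchl5, Lnx1, Prkrir, Clk1 and Rab29, with Pearson correlations of 0.976 to 0.988 among 12224 genes of at least 5 CPM, of which 43 exceeded 0.9. For Tnfsf11 they were Tnfrsf22, Tcea2, Hoxb7, Uggt1 and Usp1, at 0.975 to 0.997, and 72 genes exceeded 0.9. With 6 libraries these are descriptions of shared high and low libraries. Each Ctsk-like gene peaked in mutant replicate 2, and each Tnfsf11-like gene was lowest in mutant replicate 3.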

How the data were processed

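RNA was measured in 6 pools of IVDs, 3 control and 3 mutant, grouped by the sample titles. The authors deposited raw counts per gene symbol for each library, which they made from poly(A) RNA-seq reads. The methods name Cutadapt and HISAT2 with GRCm38.88, while the submitters' processing notes name STAR 2.5.3a, HTSeq and DESeq2, and the strand setting is not given in the sources used here. The authors' table of their own comparison, with fold changes and p-values, was not used.

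Counts were normalized by TMM and tested with edgeR 4.0.16 in R 4.3.3 (quasi-likelihood test, mutant against control, all 6 libraries, no block). filterByExpr with a count minimum of 10 kept 16152 genes, and p-values were adjusted by Benjamini-Hochberg over all of them. An SE is the absolute log2 fold change divided by the root of F. The threshold was a p under 0.05, unadjusted or adjusted. The code was tested on simulated data.

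Named genes are all 10 members, each pathway gene with an unadjusted p under 0.05, the 3 most abundant genes of each pathway list, Gpr126, and the 5 genes most like Ctsk and Tnfsf11 by Pearson correlation of log2 CPM. Other pathway genes, the marker genes and the genes like Acp5 were named after their values were seen. The members and lists were chosen with earlier results of these data known. Alternatives were RLE size factors, library totals, no filter, a replicate block, DESeq2 1.42.0, limma-voom (limma 3.58.1) with quality weights, and fits that left out each library in turn. Genes were located with GENCODE M21 (GRCm38). A symbol absent from the count tables was matched by its older synonym. Figures were drawn with matplotlib.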

Additional observations from a re-analysis of the deposited data

How the results depend on the processing

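Over the 12 alternatives, 0 members had an adjusted p under 0.05. The number of members with an unadjusted p under 0.05 was 0 with RLE size factors, library totals, the replicate block, DESeq2 and limma-voom, beside 6.20% to 9.14% of all genes. It was 1 (Calcr) with no filter on low counts, beside 8.62% of all genes, and 0 to 2 when a library was left out. It was 2 (Acp5 and Calcr) without mutant replicate 2, beside 9.76% of all genes. It was 1 (Calcr) without control replicate 1 or mutant replicate 3, beside 14.1% and 5.10% of all genes. With a library left out, Calcr passed the filter only through control replicates 2 and 3, the group where it was high, so those calls of Calcr are no support, and without them the count is 0, or 1 (Acp5) without mutant replicate 2. The number of pathway genes called was 8 to 11. The count over all genes, 1164, was 2276 without the filter, 2427 without control replicate 1 (14.1% of genes, above the 11.7% of pathway genes called there) and 618 without control replicate 3. Lower pathway calls, 2, were 4 with library totals and with limma-voom and 1 without mutant replicate 2, and adjusted calls were 1 (Fos) without the filter.

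Acp5 reversed to -0.86 in limma-voom (unadjusted p of 0.186), to -0.60 with the replicate block and to -1.65 without mutant replicate 2, and DESeq2 gave no p for it. Leaving out each library, its log2 fold change ranged from -1.65 to 0.76, that of Tnfrsf11b from -0.19 to 0.072, Mmp14 from -0.078 to 0.20, Cd9 from -0.086 to 0.015, Mapk14 from -0.086 to 0.076, Mitf from -0.37 to 0.15 and Cx3cr1 from -0.088 to 0.13. Mmp14 was at -0.070 with library totals, Cx3cr1 at 0.0062 without the filter and Mapk14 at 0.00028 in limma-voom. With library totals the median of all genes moved from -0.01 to -0.13. The RANKL to OPG difference ranged from -2.62 to -0.30 without a library and was -1.37 with 1 added to each count.

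Replicate numbers are shared by the groups but were not treated as pairs, since deviations from the group means correlated at 0.16, -0.13 and 0.10 for numbers 1, 2 and 3 and 3 of 6 libraries correlated best with their own number. With the replicate block, 0 members, 9 pathway genes and 1002 genes in all were called. Depth limits Dcstamp, Ocstamp, Oscar, Calcr, Tnfsf11 and Tnfrsf11a, whose highest library held 57 counts or fewer.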

Other observations

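The genes most like Acp5 over the 6 libraries were looked up after its values were seen. Among 12224 genes of at least 5 CPM, 84 had a Pearson correlation of log2 CPM with Acp5 above 0.9, and the closest were Mrps26, Adprm, F3, Zmym5 and 2700099C18Rik, at 0.969 to 0.987. Mrps26, which encodes a mitochondrial ribosomal protein, was at 39.7, 36.3 and 38.3 CPM in controls and 31.7, 46.1 and 30.4 CPM in mutant replicates 1, 2 and 3. F3, which encodes tissue factor, was at 6.62, 5.31 and 5.59 CPM in controls and 4.43, 8.96 and 4.24 CPM in mutants. In each of these genes the pool with the most Acp5 was the highest and both other mutant pools were below every control. The range was narrower than in Acp5. The genes were picked for following Acp5 over these same 6 libraries, so the shared order comes from the choice and describes shared high and low libraries only.

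Among markers of other cells, Slc4a1, which encodes the anion exchanger of red cells, was at 4.49, 1.11 and 1.86 CPM in controls and 15.3, 26.3 and 5.94 CPM in mutants without overlap. It was also chosen after its values were seen.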
